A study of Homo sapiens with 6 samples.

Results

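The 81 genes described here encode the cytosolic ribosomal proteins and their close paralogues. They were chosen by name from GENCODE version 44, as protein-coding genes called RPL, RPLP, RPS or RPSA with a number and at most a short suffix, and they are 81 of 20046 annotated protein-coding genes. Of these, 49 have names of the large ribosomal subunit and 32 of the small subunit. The rule itself uses names alone and no value measured in the study.

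Ribosomal proteins are made in the cytoplasm, imported into the nucleus and assembled with ribosomal RNA in the nucleolus. Their mRNAs are short, are among the most abundant of a growing cell, and carry a terminal oligopyrimidine tract at the 5′ end through which mTOR signalling and LARP1 control translation. Many of their introns host small nucleolar RNAs (snoRNAs), released from the spliced intron, which guide chemical modification of ribosomal RNA. DDX5 is a DEAD-box RNA helicase known for parts in transcription, splicing, microRNA processing and ribosomal RNA processing.

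The study asked which RNAs DDX5 binds in RH30 cells, an established human alveolar rhabdomyosarcoma line positive for the PAX3-FOXO1 gene fusion. RNA was recovered with an antibody against DDX5 from nuclear extracts (RNA immunoprecipitation, RIP-seq), and the 6 samples were 3 DDX5 immunoprecipitates and 3 INPUT samples of the same line with no antibody named. The labels call them biological replicates of 1 cell line, both groups carry the fusion, and no knockdown or treatment was named. Only the peak lists of the 3 immunoprecipitates were analysed, INPUT files were not analysed here, and the control used in peak calling is not given in the sources used here.

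The lists of replicates 1, 2 and 3 held 23715, 23651 and 45832 peaks, so replicate 3 stood apart in length. The depth behind them is unknown and the library kit was unstranded, so a transcript and its antisense partner cannot be told apart. A fold enrichment below is the authors' value for a single peak over the background of the peak caller, and it can carry the abundance of an RNA as well as its recovery with DDX5. The lowest fold enrichment of a list averaged 1.35 ± 0.0179 and the highest 19.6 ± 1.74 (SD, n = 3). Differences over lists were tested by exact permutation of their signs, two-sided, for which 0.25 is the smallest possible p with 3 lists, so none could pass a threshold of 0.05. Where nothing says how separate the cultures were, such a p measures the spread between these samples.

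Ribosomal protein genes held a small part of the peaks. Replicates 1, 2 and 3 had 60, 46 and 116 peaks with a summit in such a gene, 222 of 93198 in all, or 0.234% ± 0.0338 of a list (SD, n = 3). A summit is the position of highest signal in a peak, and a peak was given to every gene whose body held its summit. Of the 81 genes, 18 (22.2%) had a summit in every list, where the same was true of 25.7% of all protein-coding genes. A further 19 had one in 2 lists and 14 in 1 list, which left 30 genes with none. At least 1 list held 51 of the 81 (63%), against 51.6% of all protein-coding genes.

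The share in every list was thus near that of protein-coding genes at large, and the share in any list was above it. The mature mRNAs are short, with a median canonical transcript of 785 bases, against 2885 bases over all protein-coding genes. Among the 62 ribosomal protein genes with a canonical transcript of at most 1500 bases, 11 (17.7%) were in every list and 36 (58.1%) in at least 1. Over all protein-coding genes of that length the shares were 10.5% and 32%. This background includes genes that RH30 may not express, and a match on RNA level was not tested.

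Replicate 2 had the fewest ribosomal protein genes. The lists of replicates 1, 2 and 3 held 36, 23 and 47 of them, or 44.4%, 28.4% and 58%, where they held 35.2%, 35.7% and 45.8% of all protein-coding genes. The share was above that of all protein-coding genes in replicates 1 and 3 and below it in replicate 2. Accordingly 14 genes were found in replicates 1 and 3 alone, while 4 were in replicates 2 and 3 and 1 in replicates 1 and 2. Replicate 3 alone held 11 genes, replicate 1 alone 3, and replicate 2 alone none. Without replicate 2, 32 genes were in both remaining lists, against 19 without replicate 3 and 22 without replicate 1.

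The genes in every list were nearly all of the large subunit. Of the large subunit there were 17 of 49 genes (34.7%), among them RPL3, RPL4, RPL7, RPL13, RPL28, RPL36 and RPL41. Of the small subunit there was RPS9, 1 of 32 genes (3.12%). In at least 1 list there were 35 large-subunit genes (71.4%) and 16 small-subunit genes (50%). Over all protein-coding genes the shares were 25.7% in every list and 51.6% in at least 1. Over those with a canonical transcript of at most 1500 bases they were 10.5% and 32%. The small-subunit share in at least 1 list was thus near that of all protein-coding genes. For large-subunit genes the share with a summit was 57.1%, 36.7% and 65.3% in replicates 1, 2 and 3. For small-subunit genes it was 25%, 15.6% and 46.9%. The large subunit was higher in 3 of 3 lists, 53.1% ± 14.7 against 29.2% ± 16.0, a difference of 23.9 ± 7.27 percentage points (SD, n = 3, exact sign-flip p = 0.25).

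The difference between subunits held when only summits inside the canonical transcript were counted, at 23.7 ± 4.81 percentage points (SD, n = 3). Large-subunit transcripts were longer, with a median of 970 bases against 736.5, and the part of this length difference in the result was not tested. Without the paralogues RPL3L, RPL10L, RPL39L and RPS27L, 17 of 46 large-subunit and 1 of 31 small-subunit genes were in every list. The median fold enrichment inside canonical transcripts was 2.15, 2.28 and 2.07 for large-subunit genes in replicates 1, 2 and 3, over 44, 27 and 68 peaks. For small-subunit genes it was 2.09, 1.77 and 2.10, over 9, 6 and 25 peaks. These medians are on another scale than the shares of genes, and the differences were not compared.

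**Figure D1:**
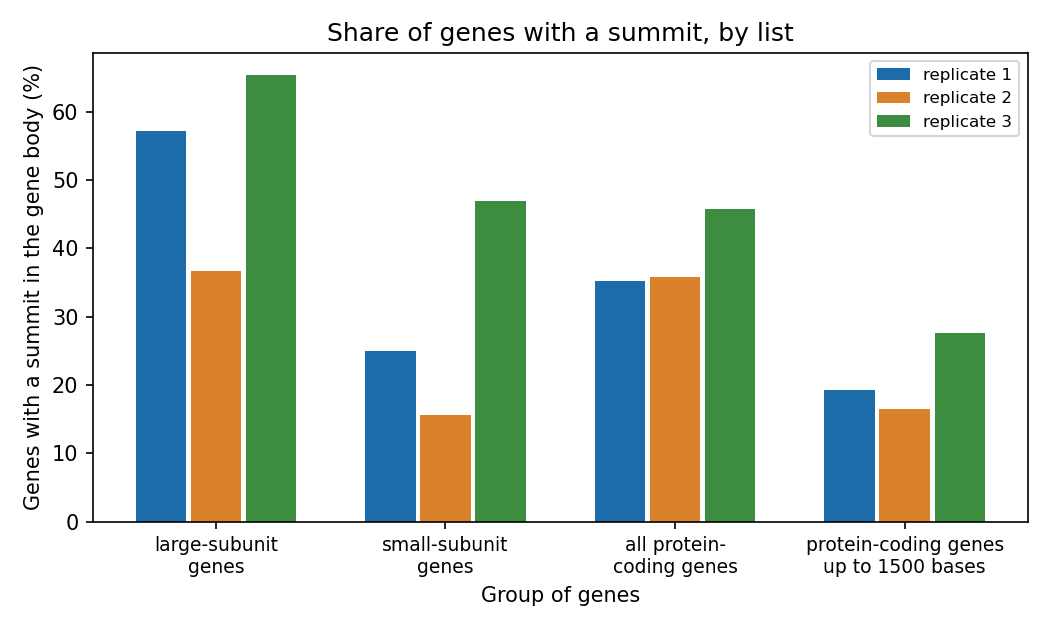
Share of genes with at least 1 summit in the gene body (y axis, %), as 1 bar for each of replicates 1, 2 and 3, for large-subunit, small-subunit, all protein-coding and short protein-coding genes (canonical transcript up to 1500 bases). The large-subunit bars, at 57.1%, 36.7% and 65.3%, are above the small-subunit bars of the same list, at 25%, 15.6% and 46.9%.

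Peaks on ribosomal protein genes were low. Their median fold enrichment was 2.13, 2.30 and 2.15 in replicates 1, 2 and 3, where peaks of other protein-coding genes had 2.62, 3.18 and 2.90. The ribosomal protein value was below the other in every list, 0.758 times on average, or a log2 ratio of -0.40 ± 0.087 (SD, n = 3, exact sign-flip p = 0.25). In coding sequence the medians were 1.83 ± 0.0761 and 2.74 ± 0.192 (SD, n = 3), a log2 ratio of -0.58 ± 0.047 (SD, n = 3, exact sign-flip p = 0.25). Fold enrichments of at least 4 were reached by 1, 2 and 14 peaks of ribosomal protein genes, 6.03% ± 5.40 of a list's, against 17.5% ± 7.19 for other genes (SD, n = 3). The −log10 q, which also rises with the number of reads, was 4.56 ± 1.45 against 5.07 ± 0.526 and was higher for ribosomal protein genes in 1 of 3 lists (SD, n = 3, exact sign-flip p = 0.75).

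Peaks of other genes more often sat on a value pair that many peaks share. The same pair of fold enrichment and p, repeated in at least 10 peaks of a list, was carried by 29.0% ± 4.35 of the ribosomal protein peaks and by 60.2% ± 7.17 of the others (SD, n = 3). The 2 groups of peaks therefore differed in this property as well as in fold enrichment. Its part in the lower fold enrichment was not tested, and without those peaks the log2 ratio was -0.33 ± 0.15 (SD, n = 3).

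The best peak of a gene in each list was taken by −log10 q, and genes in every list were ordered by the percentile of that value within its list, averaged over lists. RPL27A ranked first, but all its best peaks lay outside its canonical transcript. They had fold enrichments of 3.60, 5.45 and 10.1 in replicates 1, 2 and 3, inside the long gene record chr11:8682788-8714759 (GRCh38) that reaches past the canonical transcript, chr11:8682792-8689872, into the record of DENND2B. Of the RPL27A summits, 19 were there, and inside the canonical transcript only replicate 3 had any. RPL30 was in every list by the same route, with all 9 of its summits in sequence it shares with MATN2. Counting summits within canonical transcripts alone, 16 genes (19.8%) were in every list, against 24.2% of all protein-coding genes and 8.72% of the short ones, and 45 (55.6%) were in at least 1, against 49.9% and 29.8%. Counting only canonical exons, 10 (12.3%) were in every list, against 20.4% and 5.47%, and 36 (44.4%) in at least 1, against 44.6% and 24%.

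Peaks outside the canonical transcript came mostly from RPL27A and RPL30, with 19 and 9 of them. Of the 222 peaks, 43 lay outside the canonical transcript of the gene, 36 of them in sequence that a second gene record also covers. Over all 222 peaks, inside or outside it, 55 lay in such shared sequence. RPL28, a large-subunit gene on chromosome 19, had its single highest value there, 12.5 in replicate 3, at chr19:55401477-55401651 within the record of UBE2S. At the same place replicate 1 had 2.63 and replicate 2 had no peak. These values cannot be assigned to the ribosomal protein transcript, and results are given below with the position named.

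**Figure D2:**
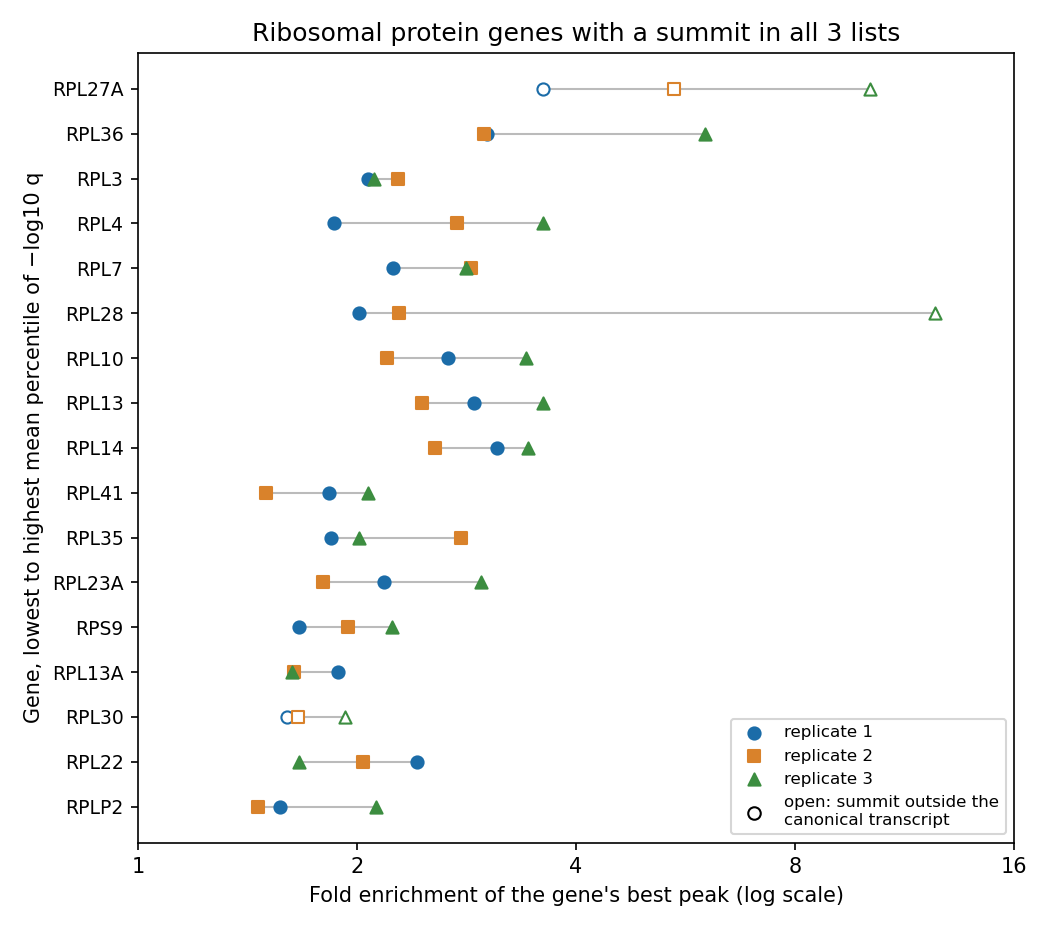
Fold enrichment of the best peak (x axis, log scale) of ribosomal protein genes with a summit in all 3 lists, in order of mean percentile of −log10 q with the highest at the top. Circles, squares and triangles are replicates 1, 2 and 3, and open symbols mark summits outside the canonical transcript. The highest values, 12.5 for RPL28 and 10.1 for RPL27A, are both open symbols of replicate 3.

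Over the genes in every list, the median of the mean best fold enrichment was 2.48 for the 18 ribosomal protein genes and 3.65 for all 5155 protein-coding genes. The median of their mean percentile was 62.0 against 75.3. Best peaks outside the canonical transcript, as in RPL27A and RPL30, were included. The 18 genes had a median canonical transcript of 1180 bases. The parts of transcript length and of peak number per gene in these differences were not tested.

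RPL3 was the ribosomal protein gene with the most regions shared by all lists. It encodes a large-subunit protein close to the peptidyl transferase centre and lies on the minus strand of chromosome 22 (chr22:39312882-39320389, GRCh38), with 10 exons in its canonical transcript. A region is the union of peaks that share at least 1 base, and RPL3 had 4 such regions, on exons 2, 3, 4 and 5. The exon 2 region had fold enrichments of 2.16, 2.37 and 2.25 in replicates 1, 2 and 3, and the exon 3 region had 2.07, 2.28 and 2.11. The exon 4 region had 1.74, 2.27 and 3.03, and the exon 5 region had 1.66, 1.61 and 1.79. The regions on exons 2, 3 and 5 varied little between lists, with SDs of 0.106, 0.109 and 0.0954, while the exon 4 region had an SD of 0.646 and its replicate 3 summit lay in intron 3, in sequence that is exonic in another transcript.

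The summits of the 3 lists fell within 20 bases of each other on exon 2, 13 on exon 3 and 10 on exon 5. The coding sequence around them is shown because these were the places where the lists met most closely in the gene with most shared regions. It is given 5′ to 3′ on the transcript strand from the GRCh38 reference, with the summit positions in capitals, for chr22:39318401-39318430, chr22:39317541-39317570 and chr22:39315453-39315482.
RPL3 exon 2: atcGtgcgggaagtCgacaggccGggatcc
RPL3 exon 3: gttgtgggcattgTGggctacgtggaAacc
RPL3 exon 5: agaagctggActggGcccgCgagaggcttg

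None of the 3 snoRNAs hosted in RPL3 introns was covered by a peak. Exon 6 held peaks in replicates 1 and 3 only, and exons 7 to 10 held none in any list.

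**Figure D3:**
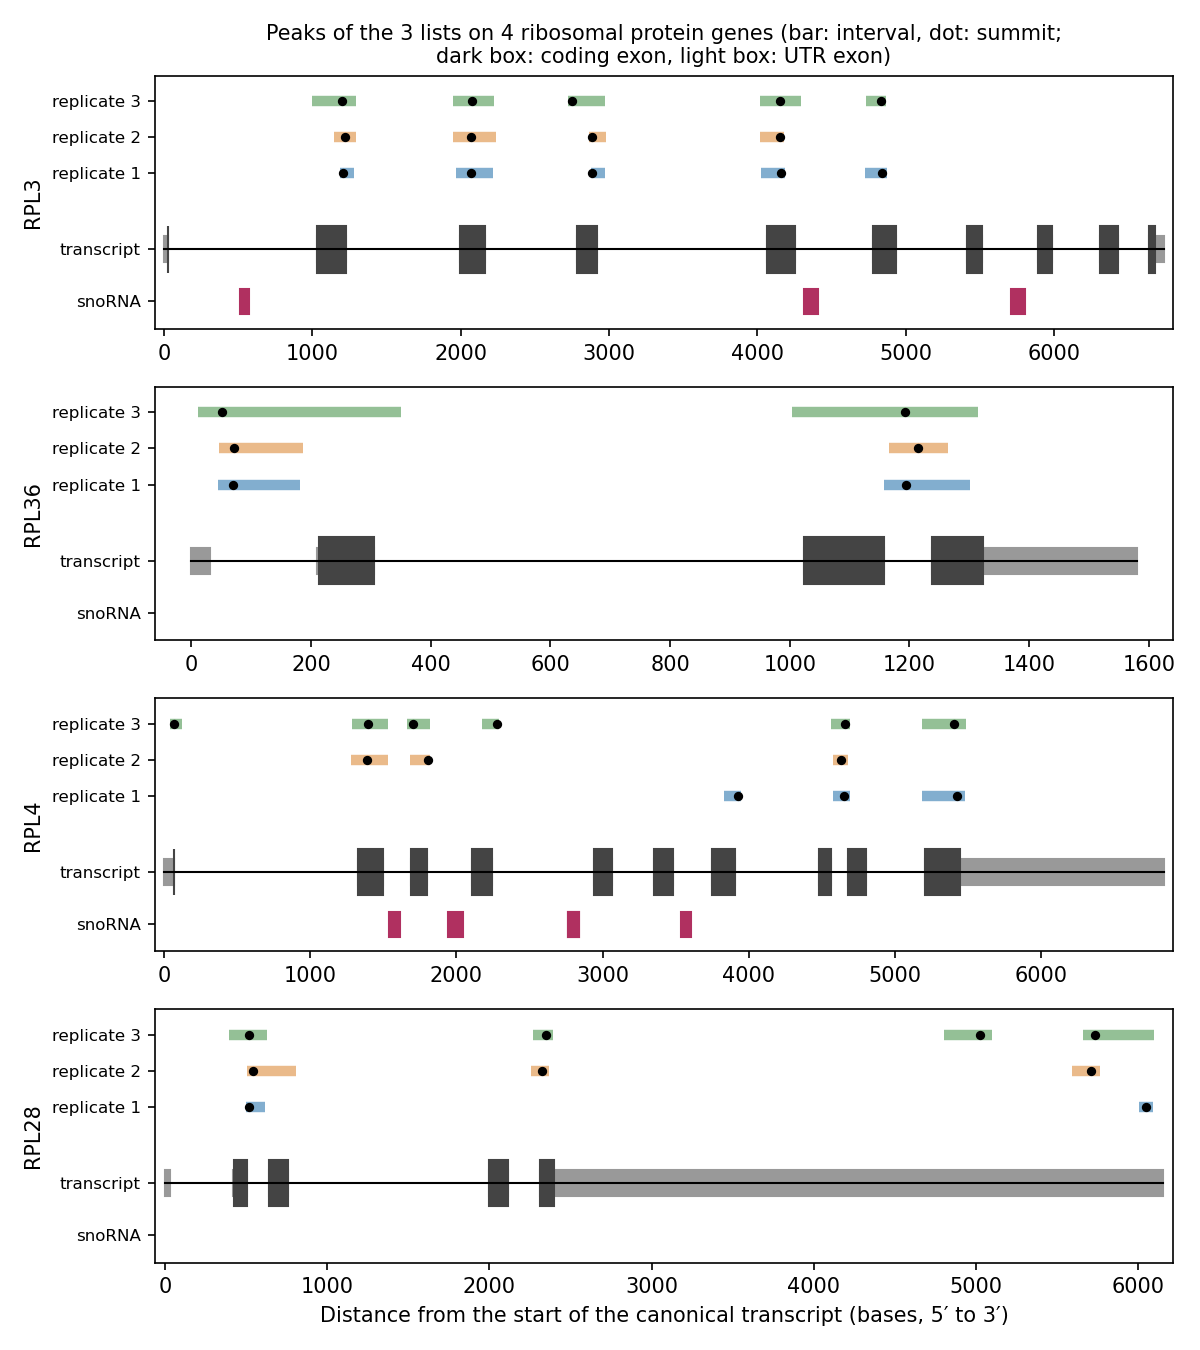
Peaks of replicates 1, 2 and 3 (bars, with summits as dots) along RPL3, RPL36, RPL4 and RPL28, drawn by distance from the start of the canonical transcript (x axis, bases, 5′ to 3′). Dark boxes are coding exons, light boxes UTR exons, and red boxes hosted snoRNAs. On RPL3 the peaks stack over exons 2 to 5, and in intron 1 of RPL36 and intron 2 of RPL28 the stacked summits lie just past an exon.

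Across all ribosomal protein genes, peaks formed 134 regions, of which 22 (16.4%) were in all 3 lists, 42 in 2 and 70 in 1. The 22 regions belonged to 15 genes. Inside canonical transcripts there were 19, with summits a median of 25 bases apart between the lists and a range of 2 to 335, and 10 of them had all summits within 25 bases. Of the peaks on ribosomal protein genes, 34.5% ± 14.6 touched a peak of both other lists, against 32.2% ± 11.6 for other protein-coding genes (SD, n = 3, exact sign-flip p = 0.75). The ribosomal protein share was higher in 2 of 3 lists.

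Further regions in all lists lay over coding sequence and 3′ UTRs. RPL13, a large-subunit gene on chromosome 16, had 1 over coding exon 3, with fold enrichments of 2.90, 2.18 and 2.78 in replicates 1, 2 and 3, and 1 in its 3′ UTR, with 3.25, 3.04 and 3.71. The 3′ UTR region of RPL13 was the higher in each list. RPL28 had a 3′ UTR region at 3.16, 2.50 and 2.98, where the summits lay up to 335 bases apart. RPL23A, whose protein sits at the exit of the peptide tunnel, had a 3′ UTR region at 2.06, 1.79 and 2.96.

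Several of these shared regions were low in every list. RPL13A, known also for the GAIT complex of inflammatory translational control, had a 3′ UTR region at 1.88, 1.64 and 1.63. RPL14 had a coding region in exon 6 at 1.46, 1.39 and 1.39, close to the lowest fold enrichment that the lists hold. Its higher peaks, between 2.06 and 3.44, were in its long 3′ UTR and met in at most 2 lists. RPS9, a small-subunit gene, had a region over coding exon 5 at 1.66, 1.61 and 2.23, and it was the only small-subunit gene with a region in all lists.

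RPL10, RPL22 and RPL35 were in every list without a region common to all. RPL10, whose protein joins the large subunit late in its assembly, had best values of 2.67 in intron 6 in replicate 1 and of 2.196 and 3.42 in the 3′ UTR in replicates 2 and 3. That place in intron 6 is exonic in another transcript. RPL35 was at 1.84 and 2.01 over coding exon 4 in replicates 1 and 3, and at 2.78 in intron 2 in replicate 2. The best RPL22 peaks, at 2.42, 2.04 and 1.66, were all in its 3′ UTR but at different places. All RPL22 peaks lay in sequence that a second gene record also covers, as did the RPL10 3′ UTR peaks, in DNASE1L1. With 1 gene per summit, 15 ribosomal protein genes were in every list.

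The closest agreement of summits was on RPL41, which encodes one of the shortest human proteins. Its 3′ UTR region, chr12:56117417-56117600, had fold enrichments of 1.83, 1.50 and 2.07 in replicates 1, 2 and 3, and the 3 summits were neighbouring bases. On RPL14 the 3 summits lay within 8 bases. These sites are shown as the places of closest agreement outside RPL3 among the genes reported. RPS9 exon 5 is shown as the only small-subunit region in all lists, with summits within 27 bases. Summit positions are in capitals, for chr12:56117538-56117567, chr3:40462103-40462132 and chr19:54207501-54207530 of GRCh38, all on the plus strand. The RPS9 window holds the summits of replicates 1 and 2, and that of replicate 3 lay upstream of it.
RPL41 3′ UTR: tgcaccgtggaggcCACaggagcagaaaca
RPL14 exon 6: tccagcccagAaggtTccTgcccagaaagc
RPS9 exon 5: ggccgcgtgaagaggAagaaTgccaagaag

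By position in the gene, the 222 summits comprised 76 in coding sequence, 1 in a 5′ UTR and 40 in 3′ UTRs of the canonical transcript. A further 32 lay in its introns at places exonic in another transcript of the gene, 30 in other intron sequence and 43 outside it. Canonical exons thus held 52.1% ± 3.77 of the peaks on ribosomal protein genes and 75.6% ± 11.6 of those on other protein-coding genes (SD, n = 3). The share was lower in 3 of 3 lists, with a difference of -23.5 ± 7.82 percentage points (SD, n = 3, exact sign-flip p = 0.25). The groups were classed by unlike rules. A ribosomal protein peak kept its class in that gene whatever other gene held the summit. A peak held by several other protein-coding genes took its most exonic class among them. With 1 gene per summit the difference was -14.6 ± 12.3 percentage points (SD, n = 3, exact sign-flip p = 0.25). Within canonical transcripts alone the share was 65.2% ± 2.54 against 77.3% ± 11.3 and was lower in 2 of 3 lists (SD, n = 3, exact sign-flip p = 0.5).

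The classes did not all differ in the same direction. Peaks in 3′ UTRs were 18.2% ± 1.55 against 33.8% ± 9.52, lower in 3 of 3 lists (SD, n = 3, exact sign-flip p = 0.25). Coding sequence held 33.6% ± 2.74 against 40.5% ± 11.3, lower in 2 of 3 lists (SD, n = 3, exact sign-flip p = 0.5). Exons of other transcripts held 13.9% ± 4.86 against 2.88% ± 0.339, higher in 3 of 3 lists, and sequence outside the canonical transcript 19.9% ± 8.30 against 2.22% ± 0.733, also higher in 3 of 3 (SD, n = 3, exact sign-flip p = 0.25 for each). Of the 43 peaks outside the canonical transcript, RPL27A held 19 and RPL30 held 9, so that share rests mostly on these genes. A second gene record covered 36 of the 43, and the part of the unlike rules of classing in these differences was not tested. Introns held 14.1% ± 1.76 against 19.3% ± 10.8, lower in 2 of 3 lists (SD, n = 3, exact sign-flip p = 0.75).

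**Figure D4:**
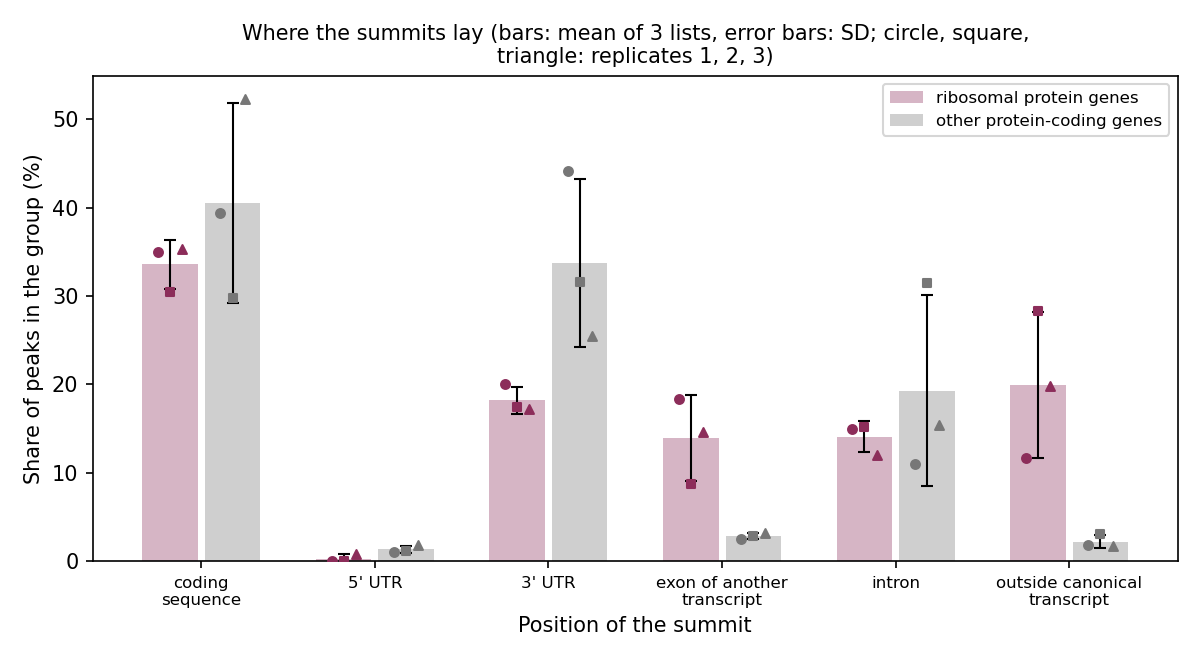
Share of peaks (y axis, %) by the position of the summit (x axis), for ribosomal protein genes and for other protein-coding genes. Bars are the mean of 3 lists, error bars the SD, and circles, squares and triangles replicates 1, 2 and 3. The ribosomal protein bars are higher for exons of other transcripts (13.9%) and outside the canonical transcript (19.9%), and lower for 3′ UTRs (18.2%). The groups were classed by unlike rules where several genes held a summit.

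Among the 117 summits in canonical exons, coding sequence held more than its part of the bases summed over the transcripts. Coding sequence makes up 37.7% of the exonic bases of the 81 transcripts and held 65.0% of these summits, whereas 3′ UTRs make up 58% and held 34.2%. Long 3′ UTRs weigh heavily in these sums of bases. The median 3′ UTR was 139 bases and the longest 7245, where the median coding sequence was 456. A comparison within each gene was not made. The 5′ UTRs, with a median of 42 bases, make up 4.36% and held 1 summit (0.855%), on RPLP1 in replicate 3. The tract through which the translation of these mRNAs is controlled lies in that short stretch, and peaks were as a rule wider than it, with a median of 156 ± 18.4 bases (SD, n = 3). Along the spliced transcript the median summit was at 48.4%, 52.5% and 48.1% of its length in replicates 1, 2 and 3, and differed from that of other genes by -0.41 ± 6.44 percentage points (SD, n = 3, exact sign-flip p = 1).

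Summits in introns lay close to exons. Inside canonical transcripts, 62 summits were intronic (20, 11 and 31 in replicates 1, 2 and 3). Of these, 32 were at places exonic in another transcript of the gene, and they are counted as intronic here and below. In other genes such places held 559 of 2983, 618 of 7328 and 1378 of 8003 intronic summits in replicates 1, 2 and 3. Of the 62, 54 were within 50 bases of an exon edge of the canonical transcript. This was 88.3% ± 3.83 of a list's, against 37.7% ± 20.5 for intronic summits of other protein-coding genes, higher in 3 of 3 lists by 50.5 ± 22.6 percentage points (SD, n = 3, exact sign-flip p = 0.25). Within 25 bases the difference was 15.7 ± 16.9 points (SD, n = 3, exact sign-flip p = 0.25), and replicate 1 had 45% against 42.5%. The peak itself reached into the exon in 46 of the 54 (85.2%), against 98.8% of the 6314 such peaks of other genes. Of the 54, 31 (57.4%) followed an exon, on the side of the 5′ splice site, and 23 preceded one, where 47.4% followed one in other genes.

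Introns of these genes are short, and that bears on the comparison. Their median length was 484.5 bases against 1556 in other genes, and 11.8% of their intron bases lie within 50 bases of an edge, against 1.68%. The share of summits there exceeded the share of bases in both groups of genes. Replicate 2 had the lowest share in other genes, and the ribosomal protein share was near the same in all 3 lists. An unspliced transcript and an exon-level peak that runs past its exon cannot be told apart from these lists.

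**Figure D5:**
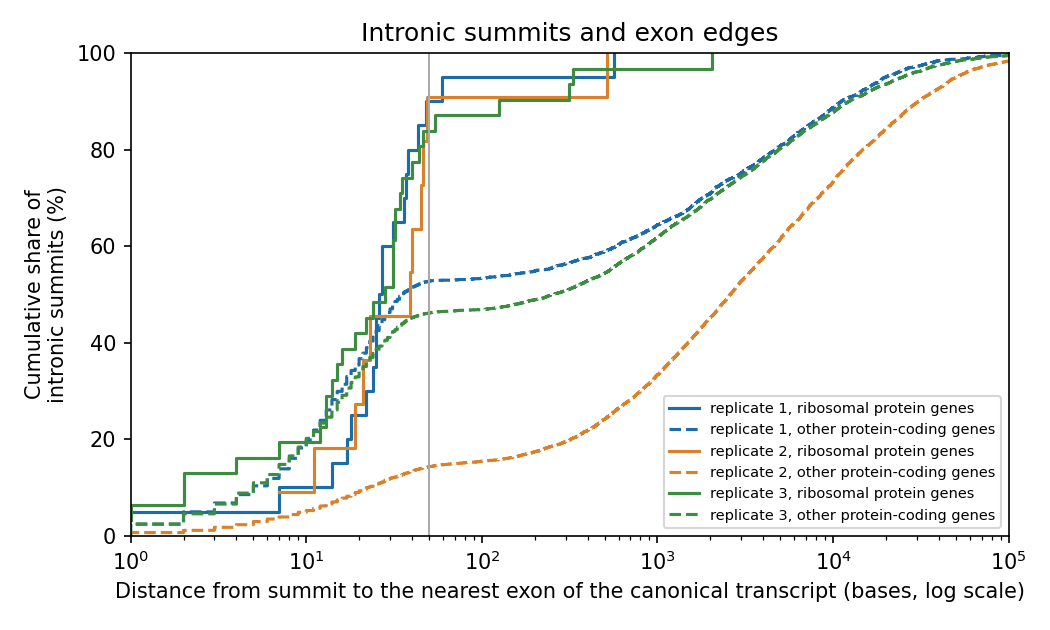
Cumulative share of intronic summits (y axis, %) by distance to the nearest exon of the canonical transcript (x axis, bases, log scale), with 1 line for each of replicates 1, 2 and 3, solid for ribosomal protein genes and dashed for other protein-coding genes. Intronic summits include those at places exonic in another transcript. The vertical line marks 50 bases, by which the solid lines have reached 88.3% on average and the dashed lines 37.7%.

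Some regions found in all lists had all their summits in an intron of the canonical transcript, near an exon. RPL36, a large-subunit gene on chromosome 19, had 1 such region in intron 1, with fold enrichments of 3.25, 3.22 and 6.01 in replicates 1, 2 and 3, and 1 in intron 3, at 3.02, 2.99 and 3.41. Both places are exonic in another transcript of the gene. Replicate 3 was the highest at both places, and at intron 1 it was apart from the other lists. In intron 1 the summits lay 38, 40 and 19 bases past exon 1. In intron 3 those of replicates 1 and 3 lay 37 and 35 bases past exon 3, and that of replicate 2 lay 23 bases before exon 4.

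RPL28 had a region at the start of intron 2, at 2.01, 2.86 and 1.89 in replicates 1, 2 and 3, with summits 14, 39 and 14 bases past exon 2. RPL4 had its region at the other end of an intron, at 2.44, 2.75 and 2.28 in intron 8, with summits 25, 46 and 22 bases before exon 9. RPL7 was at 2.24, 2.87 and 2.03 in intron 4, with summits 43, 45 and 34 bases from the nearest exon. In RPL4, RPL7 and RPL28 replicate 2 was the highest, so no list was the highest at all of these places.

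The edges are shown because the summits of separate lists lay near them. The RPL36 intron 1 window holds only the replicate 3 summit, and the RPL28 window those of replicates 1 and 3. For RPL36 intron 3 and RPL4 all summits lay further into the intron, outside the window. They are read on the transcript strand from GRCh38, with exon bases in capitals and intron bases in lower case. The regions are chr19:5690318-5690347, chr19:5691444-5691473, chr19:55386429-55386458 and, on the minus strand, chr15:66500167-66500196. Each of the first 3 introns opens with gt and the last closes with ag, the letters at which introns are cut.
RPL36 exon 1 and intron 1: AGAGCAGCAGgtaagtggtttcccgcactg
RPL36 exon 3 and intron 3: CAAGAAAAGGgtaggtgggcgctgccggcc
RPL28 exon 2 and intron 2: CTACAGCACTgtaagtggggcccggatgcg
RPL4 intron 8 and exon 9: cagtatctgcttttttatagCAAGAAGATC

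Only 8 intronic summits were more than 50 bases from an exon, in RPL6, RPL10, RPL35, RPS2, RPS6 and RPS9. RPS6 encodes the small-subunit protein phosphorylated by S6 kinases. It had no peak in replicate 1, a best value of 1.85 in replicate 2 over coding exon 2, and 8.35 in replicate 3, 125 bases into intron 1 at chr9:19379955-19380196. The replicate 3 peak had a −log10 q of 55.5 and no counterpart in the other lists. RPL6, named for its values, had 4.13 and 3.47 in intron 1 in replicates 1 and 3, 59 and 54 bases from the exon. RPL10A, also named for its values, had a peak at 6.57 in intron 2 in replicate 3 alone, nearer to the exon at 32 bases. The intronic places of RPS6, RPL6 and RPL10A given here are exonic in another transcript. With fold enrichments of at least 4, the canonical transcripts held 1, 0 and 5 peaks in replicates 1, 2 and 3. This was 2.42% ± 2.73 of the peaks there, against 17.4% ± 7.21 for other protein-coding genes (SD, n = 3).

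Hosted snoRNAs were not where the peaks lay. The 81 genes host 60 annotated snoRNA loci in 28 genes, 41 of them named SNORD (box C/D, which guide methylation) and 18 SNORA (box H/ACA, which guide pseudouridylation). None of the 60 held a summit in any list, and 1 was touched by a peak. That locus was SNORD58B in RPL17, touched in replicates 2 and 3 by peaks with fold enrichments of 1.69 and 1.64 whose summits lay 31 and 40 bases outside it. Among 307 loci in other protein-coding genes 2 held a summit and 13 were touched, so a summit in a hosted snoRNA was rare in these lists at large. Introns that host a snoRNA held 6 of the 62 intronic summits (9.68%) and make up 13.6% of the intron bases.

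Of the 28 genes that host a snoRNA, 18 (64.3%) had a summit in at least 1 list and 10 (35.7%) in every list. Of the 53 genes that host none, 33 (62.3%) had one in at least 1 list and 8 (15.1%) in every list. The shares were alike for at least 1 list and higher in hosts for every list, and this difference was not tested. Of the 28 hosts, 19 are genes of the large subunit. Whether RNAs as short as mature snoRNAs entered the libraries was not tested.

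By role, the ribosomal stalk, which recruits translation factors, was present but weak. RPLP2 was in every list, at 1.57, 1.46 and 2.12 in replicates 1, 2 and 3 around the start of exon 5. RPLP0 was at 1.58 in replicate 1 and 2.10 in replicate 3 in different exons, with no peak in replicate 2. RPLP1 was at 1.64 in replicate 3 alone. Of the proteins that form the 5S ribonucleoprotein and restrain MDM2 when ribosome assembly fails, RPL5 had 1 peak, at 2.03 in replicate 3, and RPL11 had none.

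The genes known to be mutated in Diamond-Blackfan anaemia, an inherited failure of red cell production, were seldom found in every list. Of 19, 1 (5.26%) was in every list, against 25.7% of all protein-coding genes and 10.5% of the short ones. In at least 1 list there were 9 (47.4%), near the 51.6% of all protein-coding genes and above the 32% of the short ones. The most often mutated of them, RPS19, had 2 peaks in replicate 3, at 1.54 in coding exon 4, the one with the higher −log10 q, and at 2.73 in the 3′ UTR, and no peak in replicates 1 and 2. RPS27A, which encodes a ubiquitin fused to a small-subunit protein, had no peak in any list. Of the 4 paralogues RPL3L, RPL10L, RPL39L and RPS27L, only RPS27L had a summit, in 2 lists and outside its canonical transcript.

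Other genes of the translation apparatus were set beside these as descriptions. Of 78 mitochondrial ribosomal protein genes, 13 (16.7%) were in every list and 61 in at least 1, and MRPS25 led them at 2.36, 7.21 and 5.12 in replicates 1, 2 and 3. Of 48 translation factors, 26 (54.2%) were in every list and 44 in at least 1, and the poly(A)-binding protein gene PABPC1 led them at 2.38, 6.08 and 6.38. Of 49 ribosome assembly factors, 18 (36.7%) were in every list and 41 in at least 1, led by MDN1 at 4.73, 3.74 and 4.06. Of 10 further genes of ribosomal name, 1 was in every list and 6 in at least 1. That one was RACK1, a scaffold on the small subunit, at 1.92, 2.52 and 3.75.

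The cytosolic ribosomal protein genes thus lay between the mitochondrial ones and the factors in the share found in every list. In at least 1 list their share, 63%, was below the 78.2% of mitochondrial ribosomal protein genes, 91.7% of translation factors and 83.7% of assembly factors. It was near the 60% of the 10 further genes of ribosomal name. Among cytosolic, mitochondrial and factor genes, median transcript length had the same order as the share in at least 1 list. The medians were 785 bases for cytosolic and 1242 for mitochondrial ribosomal proteins, 2498 for assembly factors and 2765 for translation factors. The part of length in these shares was not tested.

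Sequence at the summits was GC-rich. In windows of 101 bases centred on summits in canonical exons, the median GC content was 54.8% ± 0.572 for ribosomal protein genes and 49.2% ± 0.572 for other protein-coding genes, higher in 3 of 3 lists (SD, n = 3, exact sign-flip p = 0.25). In coding sequence it was 58.6% ± 2.54 against 51.8% ± 1.14 and in 3′ UTRs 45.9% ± 4.96 against 45.2% ± 0.572 (SD, n = 3, exact sign-flip p = 0.25 and 0.75). The gap was widest at intronic summits, 56.4% ± 3.57 against 42.6% ± 2.62 (SD, n = 3, exact sign-flip p = 0.25). Intronic summits again include those exonic in another transcript. By the shares above, 88.3% of them in ribosomal protein genes lay within 50 bases of an exon edge, against 37.7% in other genes. Their windows thus reached into an exon more often, and the part of this in the gap was not tested. GC content of these genes away from summits was not measured.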

How the data were processed

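Per the submitters' processing notes, bcl2fastq 2.20, FastQC 0.11.8, cutadapt 1.11, STAR 2.6.1d, SAMtools 1.10, MACS2 2.2.7.1 served on the build GRCh38/hg38, with parameters not given in the sources used here. The authors deposited 1 peak list per immunoprecipitate, with a fold enrichment (a ratio over the caller's background) for each peak. They also deposited a −log10 p-value and a −log10 q-value of each summit, and an integer score that played no part here. Because depth is unknown, counting intervals are not given.

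Peaks on the main chromosomes were kept, and summits sharing an interval were counted once, by the highest −log10 q. Genes, canonical transcripts and snoRNAs came from GENCODE version 44, and sequences from the GRCh38 reference. Regions are unions of peaks sharing at least 1 base. Computations used Python 3.11.15, numpy 2.4.6 and pandas 2.3.3. On simulated data, 4000 of 4000 planted summit positions, 300 of 300 shared regions and 900 of 900 single-list regions were recovered.

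The members, gene lists and comparisons were chosen with earlier results of these data known. Genes were named by a rule: the 15 genes in every list with the highest mean percentile of −log10 q, genes with a hosted-snoRNA summit in at least 2 lists (there were none), the 5S and stalk genes, RPS19, RPS6, RPL3, RPL36 and RPS27A, and up to 3 leaders of each comparison list. RPL6, RPL10A, RPL17, RPL22, RPL30, RPS2 and the paralogues were named after their values were seen. Values of 1 gene that the rule took are not reported here, though it is counted. Alternatives were q under 1e-05, fold enrichments of 4 or more, lists of equal length, leaving out each replicate, 1 gene per summit, peaks on shared value pairs left out, wider names and other definitions of position and overlap. Counting within canonical transcripts, the difference between subunits and the distance to exon edges were added after the data were seen.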

Additional observations from a re-analysis of the deposited data

How the results depend on the processing

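No paired analysis was possible because the INPUT samples that share replicate numbers with the immunoprecipitates had no file analysed here. The number of ribosomal protein genes in every list, 18, became 4 with q under 1e-05, 0 at a minimum fold of 4 and 10 with canonical exons only. It ranged from 19 to 32 with 1 list left out. The number in at least 1 list, 51, was 7 at a minimum fold of 4 and ranged from 40 to 51 with 1 list left out. The 22 regions in all lists became 4 with q under 1e-05, 0 at that minimum fold, 14 without shared value pairs, 14 with reciprocal overlap of 50%, and 23 to 48 with 1 list left out (37 without replicate 1, 48 without replicate 2). The share of peaks in canonical exons, 52.1%, was 4.76% at a minimum fold of 4, 62.6% with 1 gene per summit, 62.0% without shared pairs, 69.0% with exons of any transcript, 65.2% within canonical transcripts and 50.6% to 54.2% with 1 list left out. Its difference from other genes kept its direction under all 11 alternatives, from -65.4 to -9.98 percentage points. The log2 ratio of median fold enrichments turned to 0.15 at a minimum fold of 4 (SD 0.27, n = 3, exact sign-flip p = 0.5), where few peaks remain, and was negative under the other 9. The count of snoRNA loci rose from 0 to 1 with any overlap and to 1 with summits within 50 bases, and could not be had with 1 gene per summit. The large subunit stayed above the small under 9 alternatives, by 2.00 to 27.8 percentage points, and wider names were not run for it. The excess of intronic summits near exon edges was 50.5 percentage points within 50 bases, 15.7 within 25 and 52.5 within 100. The cause of these moves was not tested beyond what each setting removes. Unknown depth and 3 lists limit all comparisons.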

Other observations

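Processed pseudogenes of ribosomal proteins are numerous and near-identical to their parents, so reads can be shared between them. Of 1588 annotated ribosomal protein pseudogenes, 56 (3.53%) held a summit in at least 1 list, with 20, 12 and 51 in replicates 1, 2 and 3. The share over all annotated pseudogenes was not counted, so 3.53% cannot be called high or low. Over all protein-coding genes the share was 51.6%. RPL23AP42, RPL7AP6 and RPL7AP66 held one in every list, and were named after their values were seen. Of the 56, 29 overlapped another gene record. The median fold enrichment at the pseudogene summits was 2.56, 2.70 and 2.92 in replicates 1, 2 and 3. Peaks of protein-coding genes other than the ribosomal protein genes had 2.62, 3.18 and 2.90.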
